A study of Homo sapiens with 6 samples.

Results

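Genes of the luminal cell layer of the prostate and of its androgen receptor programme were followed in PrEC cells, which are normal prostate epithelial cells that were immortalized. The set named 8 genes: ACP3, DPP4, FOXA1, GATA2, TMPRSS2, STEAP2, FOLH1 and FKBP5. A gene was taken as measured where the array annotation gave a probe set with its symbol and no other, which held for 5 of the 8, out of 18404 genes measured in all. The probe sets of TMPRSS2, FOLH1 and FKBP5 each carried several gene symbols, so no value is given for these 3. Total RNA of 6 samples was hybridised to 1 array each. The 3 shNT samples carried the hairpin that serves as reference and the 3 shPKCi samples carried a hairpin against PKCλ/ι, the atypical protein kinase C encoded by PRKCI. Both lines were untreated, grew in prostate epithelial growth medium and were collected 48 hours after plating. The series calls the 3 samples of each line biological replicates. Whether a line was 1 clone, and how many hairpin sequences were used, was not given in the sources used here.

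The prostate gland is lined by secretory luminal cells resting on basal cells. In luminal cells androgen bound to its receptor, a steroid hormone receptor held ready by heat shock chaperones, switches on secretory and membrane proteins. FOXA1 and GATA2 are transcription factors known to open chromatin for that receptor. ACP3 encodes prostatic acid phosphatase, DPP4 a cell-surface dipeptidyl peptidase also called CD26, and STEAP2 a metalloreductase. Cultured prostate epithelial cells are commonly of basal character.

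ACP3 and DPP4, the genes that fell, had start-site regions of unlike base composition, and both are shown as the 250 bases before the transcription start, 5′ to 3′ on the strand of the gene, from RefSeq on GRCh38.p14. That of ACP3 lies at chr3:132317157-132317406 on the + strand, and that of DPP4 at chr2:162074216-162074465 on the - strand. Capitals mark a forkhead motif (TATTTAC, 112 bases before the start) in ACP3, and GC boxes (CCGCCC, 61 and 44 bases before the start) in DPP4.
ACP3: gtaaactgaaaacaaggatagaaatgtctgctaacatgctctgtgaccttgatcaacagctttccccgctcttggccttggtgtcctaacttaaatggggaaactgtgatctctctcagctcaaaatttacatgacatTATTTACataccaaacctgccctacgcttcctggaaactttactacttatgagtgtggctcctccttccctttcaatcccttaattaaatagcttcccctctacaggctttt
DPP4: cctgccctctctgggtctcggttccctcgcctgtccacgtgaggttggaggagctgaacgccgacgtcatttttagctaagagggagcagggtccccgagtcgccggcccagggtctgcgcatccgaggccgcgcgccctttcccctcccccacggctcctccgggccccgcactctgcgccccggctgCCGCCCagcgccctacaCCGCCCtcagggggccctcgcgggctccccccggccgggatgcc
The ACP3 region was 42.0% G and C, at the 16.4th percentile of 35116 such regions, and the DPP4 region was 73.6%, at the 86.9th. All 5 measured genes had an entry in the table, GATA2 and STEAP2 with a pair of start sites each. On either strand, TATTTAC was found in 2.39% of all regions and GGGCGG, the GC box, in 42.6%. The other forkhead form, TGTTTAC, was in 2.98% of regions and, among the 5 genes, only before the second listed start of STEAP2, where it read GTAAACA 66 bases upstream. The full androgen and glucocorticoid response element, AGAACA followed after 3 bases by TGTTCT, was in 1 of the 35116 regions. Neither it nor its arm AGAACA (12.4% of regions, contained in the full element) nor the GATA motif AGATAA (9.17%) was found in the windows of the 5 genes. GC boxes were also present before FOXA1 and before the first listed starts of GATA2 and STEAP2. These are matches of letters, and factor binding was not measured.

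Facts of the arrays that bear on all values are few. Median intensities over all probe sets lay between 44.9 and 48.6. The array of shNT replicate 2 stood apart, with correlations of 0.974 to 0.989 with the others, against 0.982 to 0.996 among the remaining 5. PRKCI, the hairpin's target, was lower in shPKCi by 1.05 on the log2 scale (limma adjusted p = 0.000279). PRKCZ, which encodes a related atypical protein kinase C, was lower by 0.54 (limma adjusted p = 0.00269). It passed in all 6 fits without 1 array. Because no detection calls were used here, the signal of 340 olfactory receptor genes, which epithelial cells are not expected to express, served as a guide to dim values. Their 95th percentile lay at intensities of 31.0 to 37.5 over the 6 arrays. Probe sets differ in affinity, so this guide is approximate.

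Of the 5 measured genes, 2 fell in shPKCi and none rose, at a limma adjusted p under 0.05. Among all 18404 genes 18.5% passed, 9.55% upward and 8.95% downward, and 5 genes are too few to set against that share. The share also depended on signal: it was 2.34% in the dimmest of 5 equal bins of genes and 33.8% in the brightest. The groups did not overlap in 3 of the 5, against 35.7% of all genes. The median log2 difference of the 5 was -0.06, against -0.02 over all genes.

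**Figure D1:**
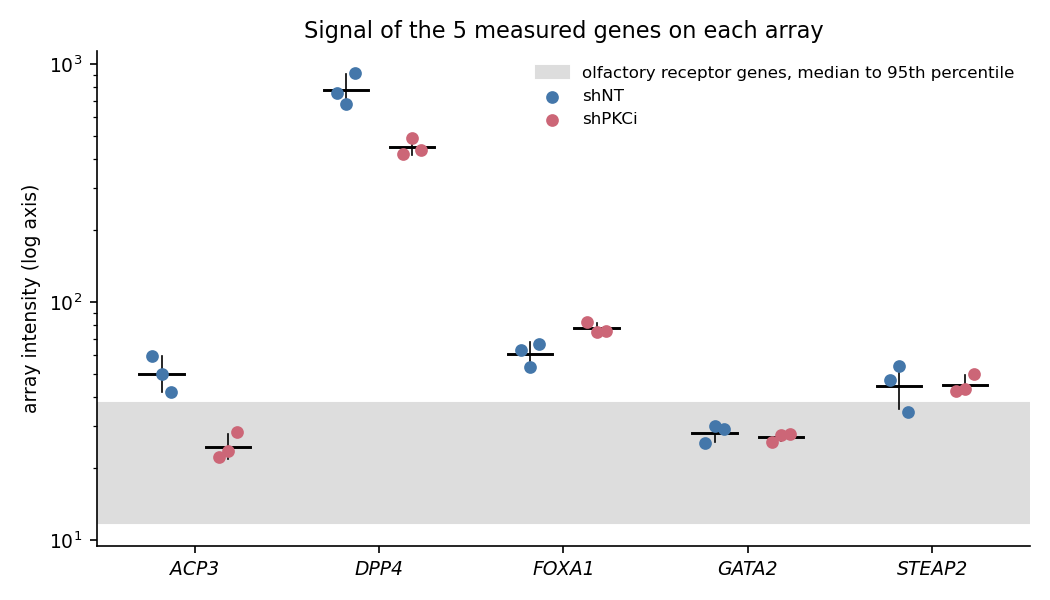
Array intensity (log axis) of each measured gene on the 3 shNT and 3 shPKCi arrays; points are arrays, horizontal bars the means of log2 values and vertical lines 1 SD. ACP3 drops from 41.9 to 59.4 in shNT into the grey range of olfactory receptor genes in shPKCi, DPP4 falls while staying far above it, and GATA2 lies inside it in both lines.

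DPP4 showed the clearest signal of the set. DPP4 (probe set 8056222) had intensities of 759.3, 682.5 and 915.3 in shNT replicates 1 to 3 and of 420.1, 491.1 and 436.4 in shPKCi replicates 1 to 3. Every shPKCi array lay below every shNT array. The means of log2 values were 9.61 ± 0.21 and 8.81 ± 0.12 (SD, n = 3), so DPP4 fell by 0.80 on the log2 scale, or 1.74-fold (SE 0.13, 95% interval -1.08 to -0.52, limma adjusted p = 0.00216). DPP4 ranked between the 92.8th and 94.3th percentiles of genes in the shNT arrays and between the 85.5th and 87.6th in the shPKCi arrays. It remained one of the brighter transcripts in both lines.

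ACP3, a long-used marker of prostate secretion, fell into the range of background. ACP3 (probe set 8082673) gave 59.4, 50.0 and 41.9 in the shNT arrays and 22.4, 23.7 and 28.4 in the shPKCi arrays. The groups did not overlap, and the shNT arrays spread more widely than the shPKCi arrays. The log2 means were 5.64 ± 0.25 and 4.63 ± 0.18 (SD, n = 3), a fall of 1.02 or 2.02-fold (SE 0.14, 95% interval -1.34 to -0.69, limma adjusted p = 0.00127). All 3 shNT values lay above the olfactory receptor 95th percentile of their array, and none of the shPKCi values did. In shPKCi 88.5% of olfactory receptor genes lay below the mean of ACP3, against 98.5% in shNT. The shPKCi level of ACP3 therefore cannot be told from background, and the fold may be understated.

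FOXA1 was higher in every shPKCi array but did not pass the test. FOXA1 (probe set 7978706) read 62.8, 53.2 and 66.7 in shNT and 82.3, 75.0 and 75.2 in shPKCi. The highest shNT array lay below the lowest shPKCi array. The log2 means were 5.92 ± 0.17 and 6.27 ± 0.08 (SD, n = 3), a difference of 0.35 (SE 0.11, 95% interval 0.10 to 0.60; limma adjusted p = 0.0549, unadjusted p = 0.0105). The call turned on small changes of processing. FOXA1 passed after median centring of the arrays (adjusted p = 0.041), among genes above the lower quartile of signal (0.0373), with array weights (0.0432) and with 16 added to each intensity (0.0407). The limma adjusted p ran from 0.0373 to 0.186 over its 15 alternatives.

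GATA2 and STEAP2 gave no difference larger than the spread between arrays. GATA2 (probe set 8090469) had intensities of 25.5, 30.2 and 29.2 in shNT and of 25.8, 27.5 and 27.8 in shPKCi. All 6 values overlapped, and none exceeded the olfactory receptor 95th percentile of its array. Its log2 difference was -0.06 (95% interval -0.29 to 0.17, limma adjusted p = 0.756), which says little about a transcript at this level. STEAP2 (probe set 8134036) read 47.2, 54.0 and 34.6 in shNT and 42.1, 43.0 and 49.8 in shPKCi. Here the shNT arrays bracketed the shPKCi arrays. The log2 difference of STEAP2 was 0.01 (95% interval -0.35 to 0.37, limma adjusted p = 0.977), an interval that allows a change of up to 0.37 upward or 0.35 downward.

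**Figure D2:**
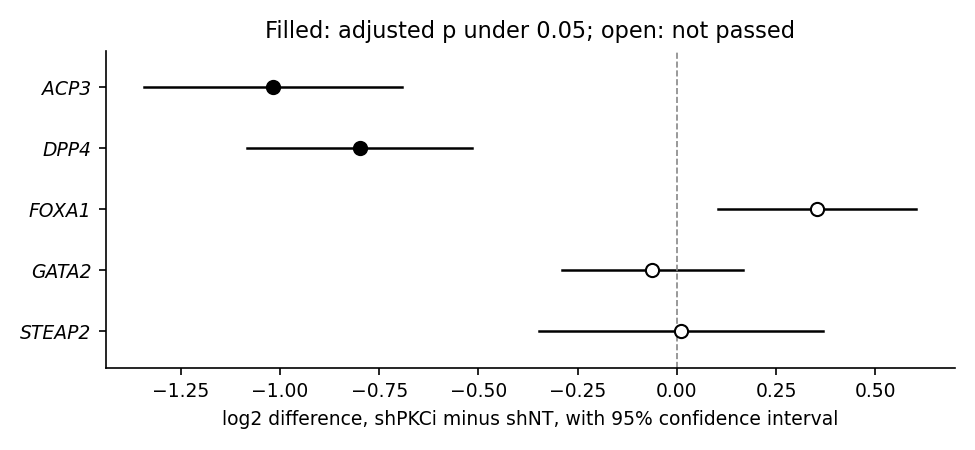
Log2 difference (shPKCi minus shNT) of each measured gene with its 95% confidence interval from limma; filled points passed an adjusted p under 0.05. ACP3 and DPP4 lie below 0 at -1.02 and -0.80, FOXA1 at 0.35 did not pass, and the intervals of GATA2 and STEAP2 span 0.

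Close relatives of the set were described next. The counts in these and later lists are to be read beside the 18.5% of all genes that passed. Of 9 genes in a list of serine peptidases related to DPP4 with attractin added, DPP4, FAP and ATRN fell and the other 6 did not pass. FAP encodes fibroblast activation protein, the closest relative of DPP4, and ATRN encodes attractin, which is not a peptidase of that family. FAP had intensities of 570.1, 480.9 and 650.5 in shNT and 250.5, 290.6 and 276.6 in shPKCi, again with no overlap. It fell by 1.05 on the log2 scale (limma adjusted p = 0.000501), and ATRN fell by 0.55 (adjusted p = 0.00273). DPP8 and DPP9, the intracellular members, had log2 differences of -0.01 and 0.45 (adjusted p = 0.971 and 0.0698). Among 6 measured acid phosphatase genes only ACP3 passed, and the widely expressed ACP1 had a log2 difference of 0.16 (adjusted p = 0.342). Without shNT replicate 2, 4 genes of the DPP4 list passed, of which 1 rose and 3 fell.

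STEAP1, a prostate membrane antigen and the neighbour of STEAP2, rose. Its intensities were 30.7, 33.0 and 41.0 in shNT and 95.7, 101.1 and 85.1 in shPKCi. The shNT values of replicates 1 and 2 lay below the olfactory receptor 95th percentile of their arrays. STEAP1 was 2.70-fold higher (log2 difference 1.43, limma adjusted p = 8.8e-05), a fold that may be understated because its shNT signal was near background, whereas STEAP3 and STEAP4 had log2 differences of 0.03 and -0.26 and did not pass. STEAP1B, a near copy of STEAP1 whose transcripts may bind the same probes, had a log2 difference of 0.59 (adjusted p = 0.14). The measured change of STEAP1 exceeded that of STEAP2 by 1.42, with the same limit, and the ratio of the pair did not overlap between the lines (two-sided exact permutation p = 0.1, the smallest that 3 arrays against 3 allow, and 0.1 adjusted over the 2 pairs compared). The pair was chosen after these values were seen, so the permutation test adds no support. Of the 5 STEAP genes 1 passed, and 2 rose and 1 fell without shNT replicate 2.

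Among FOXA and GATA factors, GATA3 fell and FOXA2 rose. GATA3, the GATA factor of many epithelia, had intensities of 430.2, 366.0 and 441.3 in shNT and 257.2, 253.2 and 259.6 in shPKCi. The drop of GATA3 was 0.68 on the log2 scale, or 1.60-fold (limma adjusted p = 0.00176). It was not compared with GATA2, whose signal lay in the background range in both lines. FOXA2, better known from liver and from neuroendocrine prostate cells, rose by 0.40 (adjusted p = 0.0174). FOXA2 did not pass without shNT replicate 1, shPKCi replicate 2 or shPKCi replicate 3 (adjusted p up to 0.0939), and 1 or 2 of the 11 genes passed in each fit without 1 array. The fall of FAP was larger than that of DPP4 by 0.25 (two-sided exact permutation p = 0.1, likewise the smallest possible). Both pairs were chosen after their values were seen.

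Relatives of the 3 genes without a value of their own were also counted. Of 18 measured type II transmembrane serine proteases and their inhibitors, the family of TMPRSS2, TMPRSS4 and ST14 fell and none rose. After median centring 1 rose and 1 fell. TMPRSS4 fell by 0.86 (limma adjusted p = 0.000391). ST14, which encodes matriptase, fell by 0.40 (adjusted p = 0.0323) but did not pass in 5 of the 6 fits without 1 array, all but that without shNT replicate 2 (adjusted p up to 0.132). Of 15 FK506-binding proteins other than FKBP5, FKBP14, FKBP4 and FKBP11 rose by 0.61, 0.58 and 0.58 and none fell, while 3 rose and 1 fell after cyclic loess or with 16 added to each intensity. FKBP4 is, like FKBP5, a chaperone of steroid receptors. FKBP11 lost its call on leaving out shPKCi replicate 1 (adjusted p = 0.0508). None of the 3 measured relatives of FOLH1 passed (limma, 0 at an unadjusted p under 0.05), and 1 passed, as a fall, without shNT replicate 2.

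The genes next to the 5 along their chromosomes were taken as 3 protein-coding neighbours on each side in RefSeq order, a choice made after the data were seen. Of 30 neighbours 28 were measured, 4 of them higher and 1 lower in shPKCi, against the 18.5% of all genes called. FAP, beyond GCG from DPP4, was the neighbour that fell. GCG, the glucagon gene between them, had a log2 difference of 0.07 (limma adjusted p = 0.768), and IFIH1 on the far side of FAP had -0.02 (adjusted p = 0.951). STEAP1 rose beside STEAP2, and GTPBP10 on the other side rose by 0.50 (adjusted p = 0.0304). The remaining neighbours that rose were MRPL3, near ACP3, by 0.53 and RUVBL1, near GATA2, by 0.70.

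**Figure D3:**
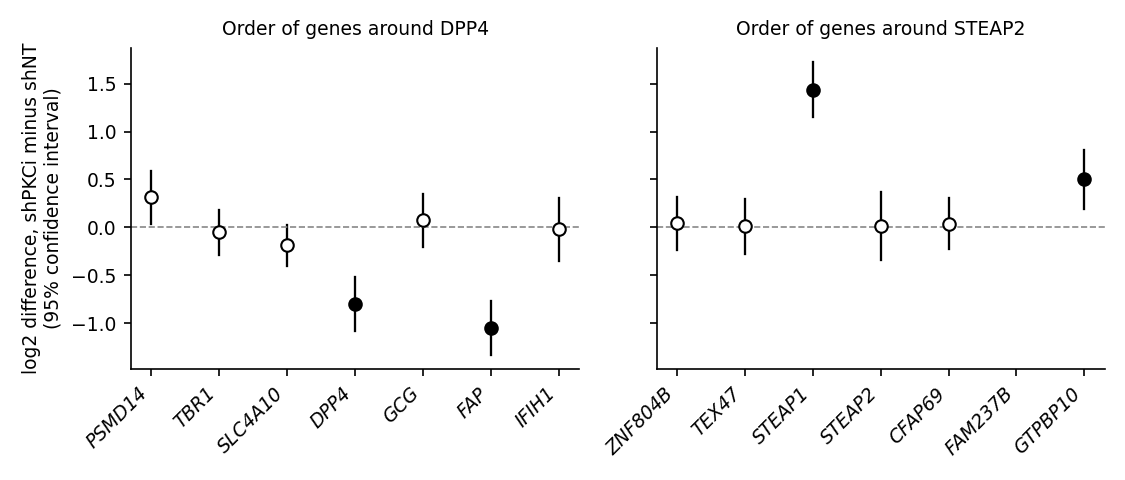
Log2 difference (shPKCi minus shNT, with 95% confidence interval) of the genes around DPP4 and STEAP2 in chromosomal order, evenly spaced; filled points passed an adjusted p under 0.05, and FAM237B has no point. DPP4 and FAP fell with GCG between them near 0, and STEAP1 rose next to STEAP2, which lay at 0.01.

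The genes whose values over the 6 arrays ran closest to ACP3 and DPP4 were found by the root mean square difference of log2 values, each centred on its own mean. For ACP3 these were TMEM107, RNF175 and KRT13, at 0.07, 0.09 and 0.09 log2 units. KRT13, a keratin of the hillock cells of the prostate, had intensities of 378.7, 319.8 and 272.7 in shNT and 154.1, 153.6 and 159.0 in shPKCi. For DPP4 they were XRN1, which encodes an RNA-degrading enzyme, SGPP2, which encodes a sphingosine-1-phosphate phosphatase, and CARD16, each at 0.06. Likeness over 6 arrays in 2 groups mostly reflects the size of the group difference.

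Other luminal genes were counted in the same way. Of 24 measured members of a luminal list without the 8 genes, STEAP1 and TGM4 rose, KRT19 fell and 21 did not pass, where 18.5% of all genes passed, and the median log2 difference was 0.03 (-0.02 over all genes). TGM4, a secreted prostate transglutaminase, had intensities of 34.6, 35.5 and 35.5 in shNT and 51.7, 61.3 and 65.2 in shPKCi, and rose by 0.75 (limma adjusted p = 0.00142). Its shNT values lay near the olfactory receptor 95th percentiles of their arrays (33.9, 37.5 and 32.2), that of replicate 2 below. The rise of TGM4 may therefore be understated. KRT19 fell by 0.52 (adjusted p = 0.0131), a call that was lost on leaving out shPKCi replicate 1 or 2 (adjusted p up to 0.0646). The luminal keratin gene KRT8 had a log2 difference of 0.34 (adjusted p = 0.0624) and KRT18 of 0.27 (adjusted p = 0.218). Both were bright, at the 95.9th and 96.3th percentiles of genes. KLK3, which encodes prostate-specific antigen, lay at the 32.6th percentile with a log2 difference of -0.26 (adjusted p = 0.499), and MSMB, another secretory gene, at the 4.30th. KLK3 was below the olfactory receptor 95th percentile in shNT replicate 3 and shPKCi replicate 3. TSPAN8, MSMB, ORM1, TRPM8, AZGP1, TRPV6 and CD38 were dim, between the 1.52th and 13.9th percentiles. In the dimmest of the equal bins of genes by signal 2.34% of all genes passed, against 33.8% in the brightest. The missing calls of these dim genes therefore say little about whether they changed. Without shNT replicate 2, 4 genes of the luminal list rose and 2 fell, and 2 rose and 2 fell after cyclic loess.

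Markers of other cell types moved in part, where 18.5% of all genes passed, 9.55% upward and 8.95% downward. Of 15 measured basal genes 8 fell and none rose, with a median of -0.33, DSG3 and DSC3 by 1.42 and 1.02 and CDH3 and EGFR by 0.62 and 0.60. Most of these 15 were bright, and 33.8% of all genes passed in the brightest of 5 equal bins. KRT5 and KRT14, the defining basal keratins, lay at the 99.6th and 97.1th percentiles. KRT14 was among those that fell, by 0.33 (limma adjusted p = 0.0356). Of the 6 fits without 1 array it passed in 1, that without shNT replicate 2. KRT5 had a log2 difference of -0.27 and did not pass (adjusted p = 0.0682). Without 1 array the number of basal genes called ran from 4 (without shPKCi replicate 2) to 9 (without shNT replicate 2). It was 5 without shNT replicate 1, shPKCi replicate 1 or shPKCi replicate 3, and 1 rose and 5 fell after median centring. Of 15 stromal and smooth muscle genes FBLN1, TAGLN, COL1A1 and ACTA2 fell, and ACTA2 fell by 2.15, while the defining stromal genes DCN and LUM lay at the 3.42th and 1.81th percentiles. Of 14 club and hillock genes LCN2 rose and KRT13 and KRT23 fell, of 13 neuroendocrine genes FOXA2 rose and ENO2 fell, and of 13 endothelial and blood genes CD3D rose and KDR fell. After median centring 2 club and hillock genes rose and 2 fell. KRT23 passed without shNT replicate 2 and in none of the 5 fits without another array (adjusted p up to 0.0725), and COL1A1 lost its call on leaving out shPKCi replicate 2 or 3 (adjusted p up to 0.0951). CD3D and KDR lay below the olfactory receptor 95th percentile on all 6 arrays, so their signal was in the background range in both lines, and both lost their calls on leaving out any 1 shPKCi array (adjusted p up to 0.105 and 0.0823). The part of these shifts in the falls of ACP3 and DPP4 was not tested. In bulk RNA, fewer cells of a type and less RNA per cell cannot be told apart.

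**Figure D4:**
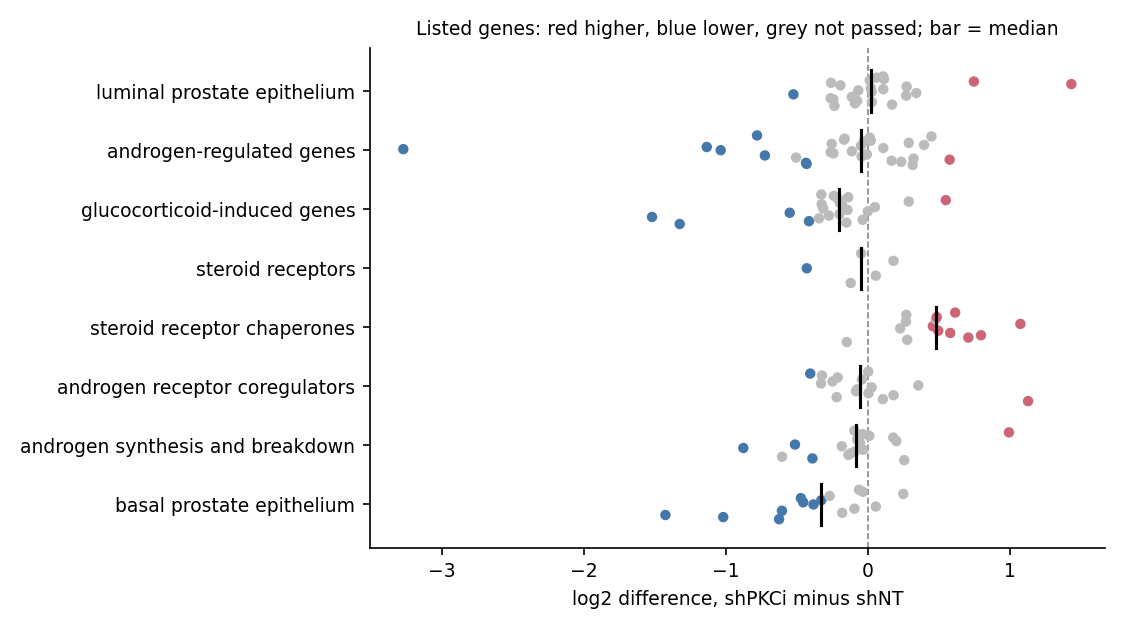
Log2 difference (shPKCi minus shNT) of every measured gene in 8 lists; red points rose, blue points fell, grey points did not pass an adjusted p under 0.05, and black bars are list medians. The steroid receptor chaperones sit to the right of 0 with a median of 0.48, the basal genes to the left with -0.33, and the luminal list centres on 0.03.

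Of 29 measured genes known to respond to androgen, 7 fell, 1 rose and 21 did not pass, where 18.5% of all genes passed, with a median of -0.05. NDRG1, also known as a hypoxia-induced gene, fell by 3.27, PDE9A by 1.13, the transcription factor gene MAF by 1.03 and ZBTB10 by 0.78 (limma adjusted p of at most 0.00137). CENPN, a centromere gene, was the 1 that rose, by 0.58 (adjusted p = 0.0323), and it lost its call on leaving out any 1 of the shPKCi arrays (adjusted p up to 0.108). After median centring 5 rose and 7 fell, after cyclic loess 3 and 8, and with 16 added to each intensity 4 and 7, so the balance of directions in this list depended on scaling. Glucocorticoids act through a related receptor and the same DNA element. Of 22 measured genes known to be induced by them, 4 fell and 1 rose, with a median of -0.20, and 4 fell and 2 rose after median centring. ERRFI1, an inhibitor of EGF receptor signalling, fell by 1.52, ANGPTL4, also induced by hypoxia, by 1.32 and GLUL by 0.55, while the thiamine transporter gene SLC19A2 rose by 0.55. The classical glucocorticoid targets TSC22D3, PER1 and ZBTB16 had log2 differences of -0.24, -0.20 and -0.33 and did not pass (adjusted p of 0.107, 0.424 and 0.0663).

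Of 5 measured steroid receptor genes, NR3C1, encoding the glucocorticoid receptor, was the bright one and fell by 0.43 (limma adjusted p = 0.0362). It passed without shNT replicate 2 and in none of the 5 fits without another array (adjusted p up to 0.126). NR3C2, PGR, ESR1 and ESR2 lay between the 7.13th and 21.5th percentiles of genes and did not pass. Chaperones of steroid receptors rose in 8 of 14 measured genes and fell in none, with a median of 0.48. Over all genes 9.55% rose. The 14 chaperone genes lay between the 70.6th and 99.9th percentiles of signal. Of all genes, 30.9% passed in either direction in bin 4 of 5 equal bins and 33.8% in bin 5, the brightest. PPID, a cyclophilin of receptor complexes, was higher by 1.08, the HSP40 genes DNAJB1 and DNAJA1 by 0.80 and 0.71, and SUGT1 by 0.62 (adjusted p of at most 0.00378). The HSP90 genes HSP90AA1 and HSP90AB1 had log2 differences of 0.50 (adjusted p = 0.0372; lost on leaving out shNT replicate 1 or 2 or shPKCi replicate 1 or 2, up to 0.141) and 0.23 (adjusted p = 0.17). From 6 to 9 chaperone genes rose, and none fell, in the fits without 1 array, and 8 to 11 rose under the other scalings.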

How the data were processed

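Total RNA of 3 shNT and 3 shPKCi samples, grouped by title, was measured on 1 array each. The values deposited by the authors are array intensities on a linear scale for 32321 probe sets. They were made with RMA, per the submitters' processing notes, and no version, software or genome build was given in the sources used here. Intensities were taken to log2. Of the probe sets, 19158 had 1 gene symbol in the platform annotation, 1388 had several and 11775 were not listed. For genes with several such probe sets the one with the highest mean was used, giving 18404 genes. Groups were compared with limma 3.58.1 (lmFit, eBayes) in R 4.3.3 over all genes and arrays, with Benjamini-Hochberg adjustment, a threshold of 0.05 and no filter. The fit was tested on simulated data. Precision is limited by the number of arrays.

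The members and the gene lists were chosen with earlier results of these data known. Named genes were the members, up to 4 genes per list with the smallest adjusted p, the steroid receptors, and for each member past the threshold the 3 genes closest to it over the 6 arrays. Other genes were named after their values were seen. Listed genes without a value were not analysed here. Neighbours came from RefSeq gene order. Alternatives were to leave out each array, to block on the replicate number and to use 2 other scalings, 2 filters, other choices of probe set, other variance models and a pseudocount of 16.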

Additional observations from a re-analysis of the deposited data

How the results depend on the processing

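The falls of ACP3 and DPP4 kept their direction and passed in all 15 and 16 alternatives that tested them, with log2 differences of -1.14 to -0.70 and -0.90 to -0.68. Among genes above the median signal, 1 of the measured members, DPP4, could be tested and was called, because the filter left out the others. The difference of STEAP2 ran from -0.17 to 0.15 in the fits without 1 array, below 0 without shNT replicate 3 (-0.17) or shPKCi replicate 3 (-0.07). Without 1 array, 2 members were called in each fit and all genes called ran from 2045 to 3894, with 2129 without shPKCi replicate 1 and 2045 without shPKCi replicate 2. Of 248 listed genes other than the members 57 were called, and 91 with array weights. Median centring moved the split of all calls from 1758 higher and 1648 lower to 2170 and 1321, and of listed genes from 19 and 38 to 31 and 31. With the replicate number as a block, 2 members, 53 listed genes and 2978 genes in all were called; same-numbered samples did not deviate together (r = 0.12, -0.06 and -0.18), so the numbers were not taken to pair them. Signal near background limits, among others, ACP3 in shPKCi, STEAP1 and TGM4 in shNT, and GATA2, CD3D, KDR, ACKR3 and SRD5A2 in both lines.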

Other observations

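Genes that make or break down androgens went both ways, where 18.5% of all genes passed. Of 18 measured, STS, which encodes steroid sulfatase, rose 1.99-fold (limma adjusted p = 0.000569), with intensities of 51.3, 58.9 and 53.0 in shNT and 93.6, 108.9 and 124.5 in shPKCi. HSD17B2, whose enzyme inactivates testosterone, fell by 0.88 (adjusted p = 0.00192). HSD17B4 and AKR1C2 fell by 0.51 and 0.39, and each passed in only 1 of the 6 fits without 1 array (without shNT replicate 2 for HSD17B4 and without shPKCi replicate 2 for AKR1C2; adjusted p up to 0.134 and 0.156). In all 3 fell and 1 rose, against 1 and 1 after median centring, and 2 genes passed without shNT replicate 1 or without shPKCi replicate 1. The 5-alpha-reductase genes SRD5A1 and SRD5A2 had log2 differences of 0.18 and 0.01 and did not pass.

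Of 16 measured coregulators of the androgen receptor, CCND1 and PIAS3 passed, where 18.5% of all genes passed. CCND1, the cyclin D1 gene, whose protein also drives the cell cycle, rose by 1.13 (limma adjusted p = 0.000143). PIAS3, a SUMO ligase gene, fell by 0.40 (adjusted p = 0.0177) a call lost on leaving out shPKCi replicate 1 or 3 (adjusted p up to 0.0742). The p160 coactivator genes NCOA1 and NCOA2 had log2 differences of -0.33 and -0.25 (adjusted p = 0.101 and 0.147) and GRHL2, an epithelial partner factor, of -0.08 (adjusted p = 0.659). In the list 1 gene passed without shPKCi replicate 1 or 3, and after cyclic loess 1 rose and 4 fell.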
